A study of Mus musculus with 24 samples.

Results

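The 9 interferon-inducible GTPases described here are Gbp2, Gbp3, Gbp4, Gbp6 and Gbp7 of the guanylate-binding protein (GBP) family, and Irgm1, Irgm2, Igtp and Iigp1 of the immunity-related GTPase (IRG) family. They were chosen by name and are 9 of the 52636 genes measured by RNA sequencing in MC38, a mouse C57BL/6 colorectal cancer cell line. The 24 samples came from 8 lines, with 3 samples from each line, taken at separate passages in all but the line labelled FUT4. MC38-WT was unmodified and grown without puromycin at passages 7, 8 and 9. The other lines were grown in puromycin. MC38-MOCK#1, without a target, MC38-CMAS KO (sialic acid activating enzyme), MC38-COSMC KO (chaperone of the T-synthase, gene C1galt1c1) and MC38-DKO, with both targets, were made with CRISPR-Cas9 and harvested at passages 4, 5 and 6. MC38-MOCK#2, without a target, and MC38-FUT9 were made with CRISPR-dCas-VPR, a gene activator, and harvested at passages 6, 7 and 8. The line labelled FUT4 was also made with CRISPR-dCas-VPR, and its replicates 1, 2 and 3 were harvested at passages 7, 8 and 7. MC38-MOCK#1 is the reference of the knockout lines and MC38-MOCK#2 that of the overexpressing lines. Each modification exists as 1 line, so that p-values measure the spread between cultures of a line and not between independently made lines.

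GBPs and IRGs are large GTPases that cells make in response to interferons and that gather on the vacuoles of intracellular bacteria and parasites. Interferon-γ signals through its receptor and the kinases Jak1 and Jak2 to promoters with a gamma-activated site (GAS), and type I interferons signal through a complex that holds Stat2 and Irf9 and binds the interferon-stimulated response element (ISRE). Irf1, itself an interferon-induced factor, binds ISRE-like sequences as well.

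Gbp7, Gbp3 and Gbp2 lie close together on the plus strand of chromosome 3 of GRCm38, at 142530342-142550149, 142560026-142573209 and 142620602-142638008. Gbp4 (105115767-105139586) and Gbp6 (105270702-105293698) lie on the minus strand of chromosome 5. Irgm1 (48861968-48871683, minus strand), and Igtp (58199556-58207591) and Irgm2 (58199618-58222782), both on the plus strand, are on chromosome 11. The annotated exons of Igtp and Irgm2 share 162 bases on the same strand, and reads that overlap both genes were not counted for either. Gbp6 shares 29.0% and Gbp7 11.3% of its exonic bases with exons of another annotated gene on the same strand, so that the counts of these genes are lower limits.

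The sequences upstream of the RefSeq starts of 6 members are shown because they carry the letters of the elements named above. RefSeq promoter entries (GRCm38.p6, 250 bases before to 50 bases after each start) were at hand for 6 of the 9 members, and not for Gbp4, Gbp6 and Iigp1. These starts, except that of Igtp, differ from the gene coordinates above, which come from the deposited table. By those coordinates the Irgm1 and Irgm2 windows lie inside their genes, and the Gbp2 match lies past the first base of its gene. The end of the entry, after the start, was found in an annotated transcript of each gene but Irgm2. Both strands were searched for GAAANNGAAA (an ISRE core, also found as its reverse complement TTTCNNTTTC) and for TTCNNNGAA (GAS). The windows run 5′ to 3′ along the gene from 110 bases upstream of the start to 10 bases past the last match or 11 bases upstream of the start, with the matches in capitals.
Gbp2, chr3:142620553-142620623, plus strand: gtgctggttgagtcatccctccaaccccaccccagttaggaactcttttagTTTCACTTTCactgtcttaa
Gbp3, chr3:142559934-142560024, plus strand: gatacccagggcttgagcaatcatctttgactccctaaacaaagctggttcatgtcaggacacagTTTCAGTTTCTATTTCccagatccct
Gbp7, chr3:142530226-142530302, plus strand: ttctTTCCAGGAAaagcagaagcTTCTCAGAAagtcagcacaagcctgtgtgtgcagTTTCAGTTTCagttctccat
Irgm1, chr11:48871431-48871530, minus strand: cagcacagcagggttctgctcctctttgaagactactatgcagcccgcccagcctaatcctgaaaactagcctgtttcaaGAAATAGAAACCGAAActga
Irgm2, chr11:58214867-58214932, plus strand: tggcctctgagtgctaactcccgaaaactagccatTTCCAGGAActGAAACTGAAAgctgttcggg
Igtp, chr11:58199446-58199541, plus strand: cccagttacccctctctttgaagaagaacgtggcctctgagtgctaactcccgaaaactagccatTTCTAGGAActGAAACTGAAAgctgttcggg

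An ISRE core lay within 59 bases upstream of the start of Gbp2, Gbp3, Gbp7, Irgm1 and Igtp and began 64 bases upstream in Irgm2, and it was present in 6 of the 6 members with an entry, against 3.99% of the 27025 genes with entries. Gbp3 and Irgm1 each held a pair of cores that overlap by 4 bases. The second annotated start of Gbp3 had no match. In the GBP genes the core read on the strand opposite to the gene, and in the IRG genes on the same strand. GAS letters were found in Gbp7, with 2 matches, and in Igtp and Irgm2, with 1 each, against 9.55% of all genes. The Igtp and Irgm2 windows hold both motifs at the same spacing in nearly the same flanking sequence, and 0.540% of all genes hold both. These matches are a description of letters, and binding was not measured.

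**Figure D1:**
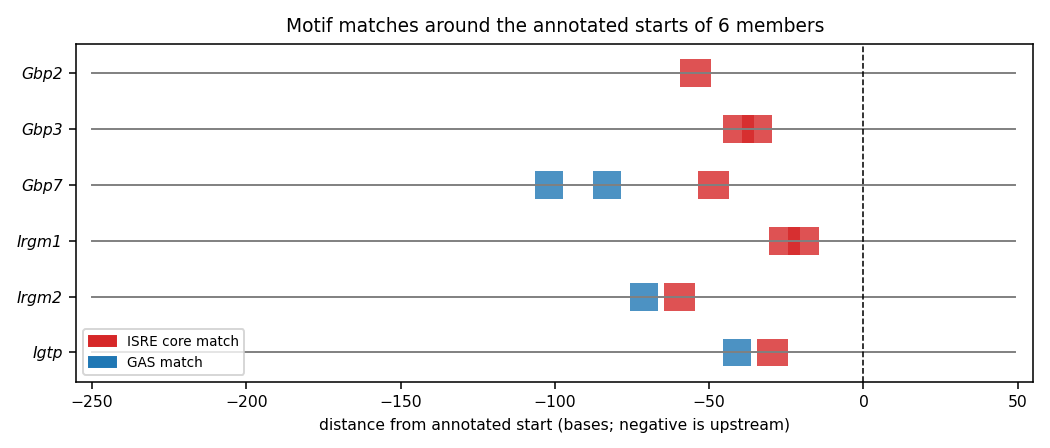
Positions of ISRE core matches (red) and GAS matches (blue) along the 300 bases around the RefSeq start of 6 members, with distance from the start in bases on the x axis and the start at 0. The matches lie upstream of the start, between 106 and 15 bases before it, and overlapping cores in Gbp3 and Irgm1 appear as darker red.

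The deposited values are read counts scaled for library size and composition and rounded, called normalized counts here, and sum to between 10911849 and 12263307 per sample. The scale of each library was read from the spacing of its values: 1 read was worth 0.756 to 1.67 normalized counts, which gives an estimated 6759227 to 16231182 counted reads per library. The targeted genes checked the labels first. Cmas was at 93 to 142 normalized counts in MC38-CMAS KO and MC38-DKO and at 272 or more in every other sample. C1galt1c1, from which a knocked-out allele can still be transcribed, was at 124 to 163 in MC38-COSMC KO, at 166 to 206 in MC38-DKO and at 220 to 251 in MC38-MOCK#1. It was at 152 to 215 in MC38-CMAS KO and at 154 to 217 in MC38-MOCK#2, where it was not targeted, so that its RNA does not tell MC38-DKO from these lines. Fut9 was at 641 to 955 in MC38-FUT9. Fut4 was at 0 or 1 in every sample, the line labelled FUT4 included, and Fut9 was at 171 to 209 in that line and at most 7 in the other 6 lines, so the label FUT4 goes against the data. Of 10 markers of colon epithelium, 8 were under 10 normalized counts in every sample, with Epcam at 0 to 3 and Cdh1 at 0 to 3 (summed 9 to 483). The other two were Lgals4, at 2 to 14, and Krt20, at 263 to 468 in the line labelled FUT4, 30 to 44 in MC38-CMAS KO and at most 6 elsewhere. By contrast, none of 7 mesenchymal markers was under 10 in every sample (summed 33532 to 51496). Of 10 leukocyte markers 8 were under 10 in every sample (summed 25 to 71, with Cd68 at 17 to 63).

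Per kilobase of exon, Irgm1 had the highest mean level over the 24 samples (63.6 normalized counts per kilobase), followed by Igtp (38.4), Gbp2 (21.7), Irgm2 (14.0), Gbp3 (13.1) and Gbp7 (4.48). Iigp1 (1.90), Gbp6 (0.336) and Gbp4 (0.167) were close to the detection limit and were at 0 in 6, 10 and 14 of the 24 samples. The last 3 are therefore given by their ranges, and the other 6 members by sample.

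Irgm1, a regulatory IRG that guards the cell's own membranes, was at 207, 927 and 539 normalized counts in replicates 1, 2 and 3 of MC38-WT, at 330, 393 and 820 in MC38-MOCK#1, and at 273, 269 and 936 in MC38-MOCK#2. It was at 530, 292 and 226 in MC38-CMAS KO, at 323, 220 and 196 in MC38-COSMC KO and at 531, 295 and 269 in MC38-DKO. In the line labelled FUT4 it was at 524, 151 and 464, and in MC38-FUT9 at 60, 42 and 57. The 3 MC38-FUT9 samples thus lay below the other 21, whose lowest value was 151, and the other 7 lines overlapped with their neighbours in the order of means.

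Igtp, the regulatory IRG also known as Irgm3, was at 31, 229 and 100 in MC38-WT, at 85, 68 and 191 in MC38-MOCK#1, and at 55, 31 and 296 in MC38-MOCK#2. Its values were 96, 43 and 28 in MC38-CMAS KO, 75, 38 and 28 in MC38-COSMC KO, and 102, 56 and 28 in MC38-DKO. In the line labelled FUT4 it was at 112, 32 and 117, and in MC38-FUT9 at 12, 5 and 5. The highest MC38-FUT9 sample, at 12, was under the lowest of the others, at 28. Irgm2, its neighbour and the third regulatory IRG, was at 15, 166 and 54 in MC38-WT, at 36, 41 and 110 in MC38-MOCK#1, and at 39, 19 and 299 in MC38-MOCK#2. It was at 50, 21 and 16 in MC38-CMAS KO, at 50, 25 and 12 in MC38-COSMC KO, and at 63, 32 and 15 in MC38-DKO. Irgm2 stood at 63, 25 and 69 in the line labelled FUT4 and at 5, 2 and 10 in MC38-FUT9. Here MC38-FUT9 was again lowest, with a narrow gap between its highest sample (10) and the lowest of the others (12, in MC38-COSMC KO).

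Gbp2, a GBP that coats pathogen vacuoles and cytosolic bacteria, was at 40, 157 and 74 in MC38-WT, at 52, 65 and 87 in MC38-MOCK#1, and at 79, 73 and 171 in MC38-MOCK#2. Its values in the knockout lines were 64, 40 and 28 in MC38-CMAS KO, 40, 16 and 26 in MC38-COSMC KO, and 104, 40 and 52 in MC38-DKO. The line labelled FUT4 had 32, 14 and 36, and MC38-FUT9 had 6, 7 and 6. Both MC38-COSMC KO and the line labelled FUT4 lay entirely below their MOCK line, and MC38-FUT9 lay below every other sample. Gbp3 was at 16, 145 and 55 in MC38-WT, at 48, 43 and 60 in MC38-MOCK#1, and at 37, 24 and 215 in MC38-MOCK#2. It was at 42, 25 and 12 in MC38-CMAS KO, at 22, 15 and 12 in MC38-COSMC KO, and at 62, 20 and 27 in MC38-DKO. The line labelled FUT4 was at 69, 14 and 52, and MC38-FUT9 at 3, 1 and 4. For Gbp3 the MC38-CMAS KO and MC38-COSMC KO samples were all below those of MC38-MOCK#1.

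Gbp7 was at 7, 72 and 30 in MC38-WT, at 36, 29 and 60 in MC38-MOCK#1, and at 10, 6 and 64 in MC38-MOCK#2. Its knockout values were 34, 18 and 14 in MC38-CMAS KO, 27, 12 and 5 in MC38-COSMC KO, and 29, 23 and 21 in MC38-DKO. Values of 43, 17 and 39 were found in the line labelled FUT4, and of 2, 3 and 2 in MC38-FUT9. MC38-FUT9 was below the other 21 samples, of which the lowest, at 5, was from MC38-COSMC KO. Iigp1, an effector IRG that loads onto parasite vacuoles, ranged from 4 to 68 in MC38-MOCK#2 and from 0 to 13 in all other lines, and was listed at 0 in the 3 samples of MC38-FUT9. Gbp4 ranged from 1 to 15 in MC38-MOCK#2 and from 0 to 2 elsewhere, and Gbp6 from 0 to 8 over the 24 samples. Neither gene had a count in MC38-FUT9.

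**Figure D2:**
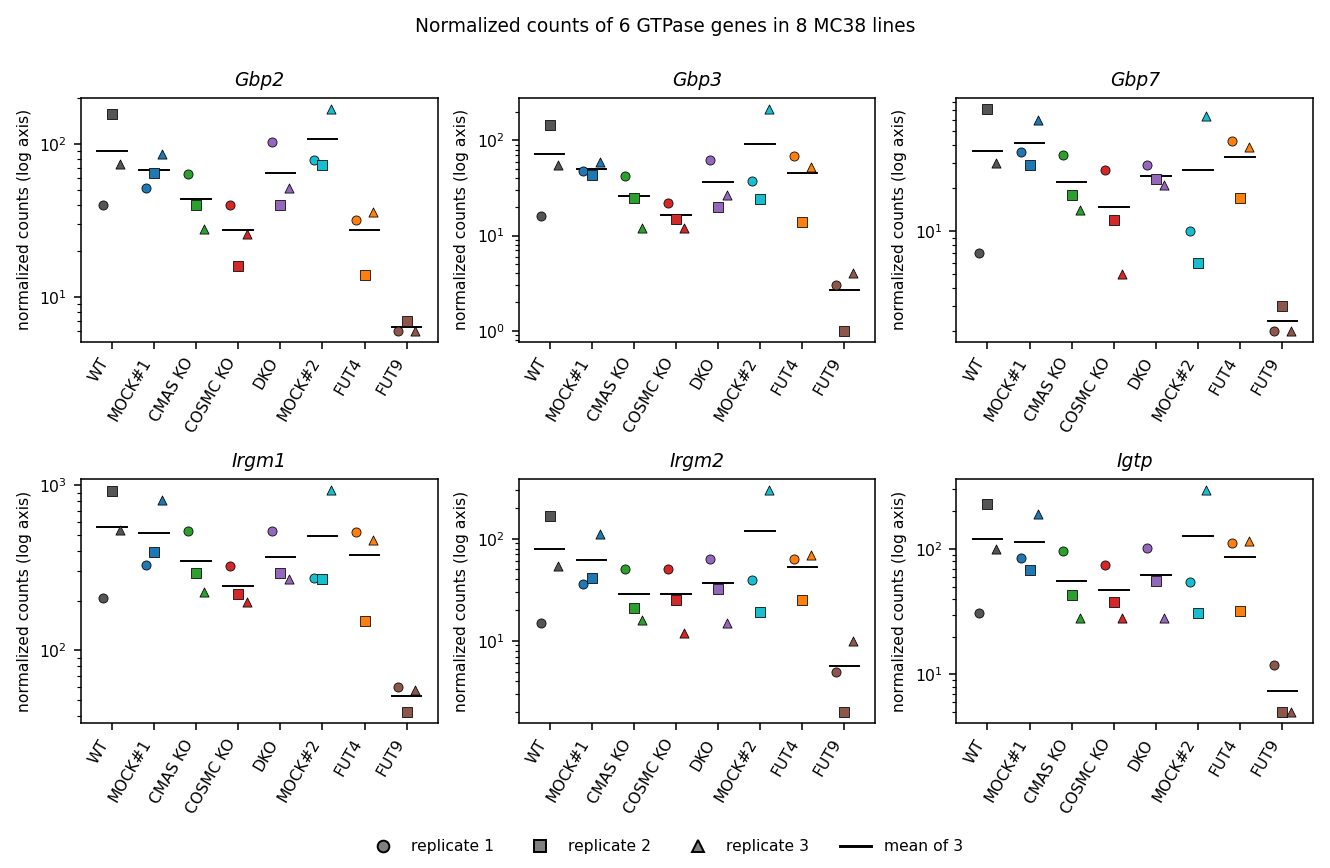
Normalized counts (log axis) of the 6 members with a mean of at least 10 in the 3 samples of each of 8 lines, with the symbol giving the replicate and the bar the mean of 3. In each panel the 3 MC38-FUT9 samples are the lowest of 24, while the other lines overlap and spread widely, with replicate 2 of MC38-WT and replicate 3 of MC38-MOCK#2 at the top.

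The lines differed beyond the spread of their samples for 7 of the 9 members in limma's moderated F test over 8 lines (adjusted p from 1.34e-05 for Gbp2 to 0.0361 for Irgm2), and not for Gbp6 (adjusted p = 0.430) or Iigp1 (adjusted p = 0.112). This is to be read against 48.2% of the 20944 genes tested. Gbp4, among the 7 (adjusted p = 0.0173), was at 0 in 14 of 24 samples. Its highest value, 15, was in replicate 3 of MC38-MOCK#2, and it was at most 2 otherwise. The call for Irgm2 was lost in 5 of the 24 fits that left out 1 sample (adjusted p up to 0.198, without replicate 2 of MC38-FUT9). In the order of line means, 6 of the 7 neighbouring pairs overlapped for each of the 6 higher members, and the pair that did not was the step down to MC38-FUT9. The share of all genes with MC38-FUT9 below every other sample was not counted. Whether this position is particular to the members is therefore not known. Between-line differences held 52.2% (Irgm2) to 82.6% (Gbp2) of the sum of squares on the log2 scale. Without MC38-FUT9 that share was 61.1% for Gbp2, 31.9% for Gbp3, 25.5% for Gbp7, 19% for Irgm1, 18.7% for Irgm2 and 18.6% for Igtp, so most of the remaining variation in 5 of these 6 genes lay between samples of the same line. Means of 3 samples vary also between lines that do not differ, so such shares alone do not show a difference between lines.

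Within a line the members moved together. Replicate 2 of MC38-WT (passage 8), replicate 3 of MC38-MOCK#1 (passage 6), replicate 3 of MC38-MOCK#2 (passage 8) and replicate 1 of each knockout line (passage 4) were the highest sample of their line for all 6 members. Replicate 2 of the line labelled FUT4, the only passage 8 sample of that line, was its lowest for all 6. The highest sample exceeded the lowest 3.92-fold (Gbp2) to 11.1-fold (Irgm2) in MC38-WT and 2.34-fold (Gbp2) to 15.7-fold (Irgm2) in MC38-MOCK#2. Over the 15 pairs of these 6 genes, Pearson's r on the log2 scale had a median of 0.918 (0.764 to 0.970) over 24 samples and of 0.902 (0.800 to 0.948) for deviations from the line means. These are descriptions, since samples share lines, passages and libraries. With bulk RNA, fewer cells expressing these genes and less RNA per cell cannot be told apart.

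MC38-FUT9 against MC38-MOCK#2 gave the largest differences, and addressed how the line with activated Fut9, a fucosyltransferase that makes Lewis X, compared with its empty-vector control. Of the 9 members, 7 were called lower and none higher (limma, adjusted p below 0.05), beside 12% of all genes called lower. The members' median log2 fold change was −3.38, against 0.01 over the 21480 genes tested. The samples of the lines did not overlap for 9 of 9 members, beside 18.2% of genes not overlapping in that direction.

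Among the IRG genes, Irgm1 fell by 2.94 on the log2 scale (SE 0.48, adjusted p = 0.00578), from a mean of 493 ± 384 to 53.0 ± 9.64 normalized counts (SD, n = 3 each). Igtp fell by 3.38 (SE 0.81, adjusted p = 0.0248) and Irgm2 fell by 3.41 (SE 1.00, adjusted p = 0.0487). Iigp1, at 0 in MC38-FUT9, was at least 10.4-fold lower when set against a floor of 3 reads per library (adjusted p = 0.0427). Among the GBP genes, Gbp2 fell by 3.78 (SE 0.35, adjusted p = 0.000795) and had the narrowest error, with 6 to 7 normalized counts in MC38-FUT9. Gbp3 fell by 4.11 (SE 0.82, adjusted p = 0.0127). Gbp6 was called too (adjusted p = 0.0241), but its values were 2, 2 and 8 against 0, which makes it at least 1.65-fold lower against the same floor. Gbp7 (−2.37, SE 0.81, adjusted p = 0.0775) and Gbp4 (at least 2.47-fold lower against the floor, adjusted p = 0.0822) did not pass. With the 3 genes listed at 0 set to their bound, the median was also −3.38.

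Part of the spread in this comparison came from 1 control sample, replicate 3 of MC38-MOCK#2, which was highest for all 6 higher members. Without it, 8 of 9 members were called lower, and over the other 5 fits that left out 1 sample the count was 2 to 5. It was 2 without any 1 of the 3 MC38-FUT9 samples and 4 without replicate 1 of MC38-MOCK#2. The bounds for the genes listed at 0 rest on replicate 3 of MC38-MOCK#2. Without that sample, Iigp1 was at least 1.65-fold lower in MC38-FUT9, and Gbp4 and Gbp6, with means of 1.5 and 2 in MC38-MOCK#2, were under the floor of 2.43 normalized counts and had no bound. Both lines were harvested at passages 6, 7 and 8. At passage 6 the 6 higher members were 4.55 to 13.2 times higher in MC38-MOCK#2 than in MC38-FUT9, at passage 7 they were 2.0 to 24.0 times higher, and at passage 8 they were 16.4 to 59.2 times higher, with 1 sample per line and passage.

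**Figure D3:**
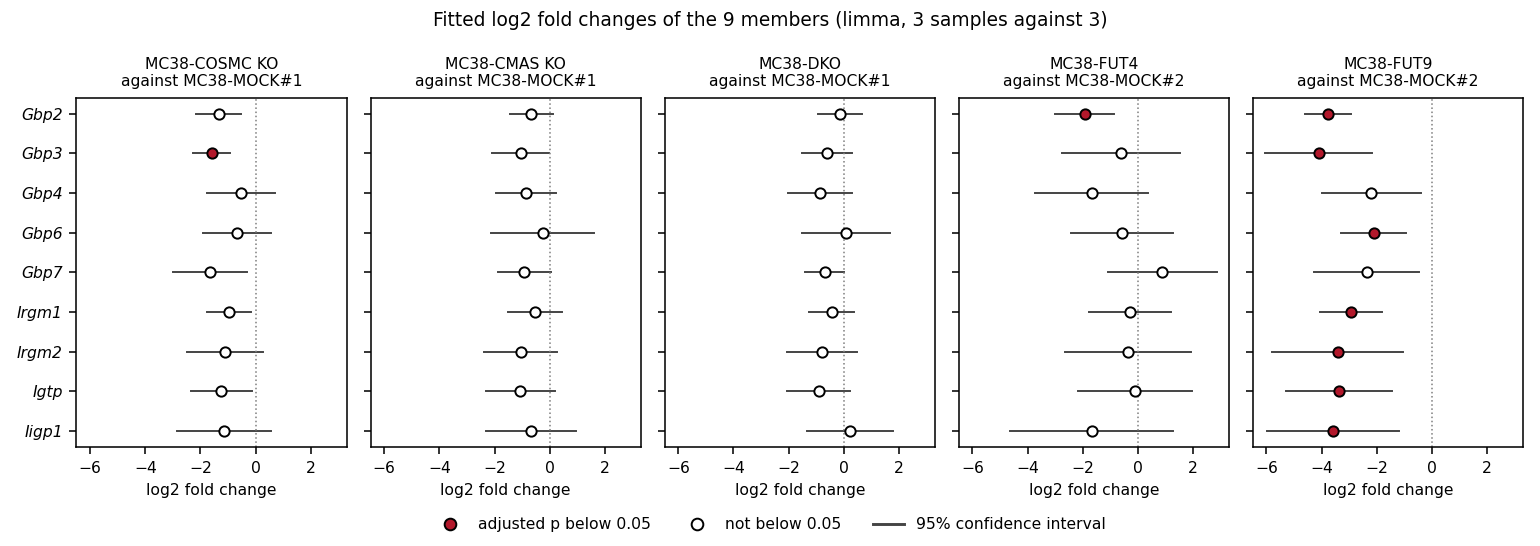
Fitted log2 fold changes of the 9 members with 95% confidence intervals (limma, 3 samples against 3) in 5 comparisons with a MOCK line, filled red where the adjusted p was below 0.05. All 9 points lie at −2.11 or lower for MC38-FUT9, and the other panels have 1 filled point (Gbp3 for MC38-COSMC KO, Gbp2 for the line labelled FUT4) or none. Fits of Gbp4, Gbp6 and Iigp1 depend on the added count of 1.

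The line labelled FUT4 shared its control, MC38-MOCK#2, with MC38-FUT9. Its replicates 1 and 3, both at passage 7, were the most alike pair of samples within any line. Their mean chi-square per gene of estimated reads was 5.98, and the next pair, in MC38-MOCK#1, had 8.35. The fits treat them as separate samples. Gbp2 was called lower (a fall by 1.93 on the log2 scale, SE 0.45, limma adjusted p = 0.0308), from 108 ± 54.9 to 27.3 ± 11.7 normalized counts (SD, n = 3 each), and was the 1 member called, beside 8.04% of all genes called lower. The call was lost in all 6 fits that left out 1 sample, and the members' median log2 fold change was −0.57. Gbp7 had a fitted value of 0.89 (SE 0.83, adjusted p = 0.545), above 0 unlike the other 8 members. Leaving out 1 sample turned the sign of 5 of the 9 members, so no direction is given for these. Fut9 was at 171 to 209 in this line and at 641 to 955 in MC38-FUT9.

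MC38-COSMC KO against MC38-MOCK#1 addressed the effect of losing the T-synthase chaperone, which leaves the truncated Tn antigen on O-glycans. All 9 members were fitted below 0, with a median log2 fold change of −1.15 against 0 over the 22172 genes tested. Gbp3 was called lower, from 50.3 ± 8.74 to 16.3 ± 5.13 normalized counts (SD, n = 3 each), a fall by 1.59 on the log2 scale (SE 0.28, adjusted p = 0.0140). It was the 1 member called, beside 5.39% of all genes called lower. Gbp2 was just outside the threshold at −1.34 (SE 0.35, adjusted p = 0.0516), and was called under 4 of the alternatives for filtering and scaling. Gbp7 (−1.65, SE 0.57, adjusted p = 0.111) and Irgm1 (−0.97, SE 0.34, adjusted p = 0.120) were the other members whose samples did not overlap, making 4 of 9, beside 14.1% of all genes. Igtp (−1.24, adjusted p = 0.143) and Irgm2 (−1.11, adjusted p = 0.292) overlapped with the control. The call for Gbp3 was lost in 5 of the 6 fits that left out 1 sample, and remained without replicate 1 of MC38-COSMC KO. The paper used another test, the exact test of edgeR, with a false discovery rate below 0.05. It lists both Gbp3 and Irgm1 among genes changed in its COSMC knockout against its MOCK cells.

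The size of the difference was unequal between passages. At passage 4 the 6 higher members were 0.720 to 2.18 times as high in MC38-MOCK#1 as in MC38-COSMC KO, with Irgm2 lower in the control. At passage 5 they were 1.64 to 4.06 times as high and at passage 6 3.35 to 12 times as high. MC38-CMAS KO and MC38-DKO, set against the same 3 control samples, had ratios of 0.623 to 1.14 and 0.50 to 1.24 at passage 4, and of 3.11 to 6.88 and 1.67 to 7.33 at passage 6. There was 1 sample per line and passage, so that passage and sample cannot be told apart, and no test was made.

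Against the same control, no member was called in MC38-CMAS KO, beside 5.76% of all genes, with a median log2 fold change of −0.86 (−0.80 without Gbp4, at or under the floor in both lines) and 1 member, Gbp3, with an unadjusted p below 0.05 (−1.06, SE 0.43, adjusted p = 0.217). For MC38-DKO the count was 0 as well, beside 0.0920%, with a median of −0.61 (−0.53 without Gbp4) and 0 members with an unadjusted p below 0.05. MC38-WT against MC38-MOCK#1 also had 0 members called, beside 5.51%, and 0 with an unadjusted p below 0.05, with a median of 0.03. MC38-COSMC KO against MC38-WT had 0 called, beside 0.581%, and 3 with an unadjusted p below 0.05, with 9 of 9 members fitted below 0 (median −1.07). These counts are from limma at an adjusted p below 0.05.

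The controls themselves differed little in the members relative to their spread: MC38-MOCK#2 against MC38-MOCK#1 had 0 of 9 called in limma, beside 11.3% of all genes, and 0 with an unadjusted p below 0.05. Without replicate 3 of MC38-MOCK#2, Gbp7 alone passed, at −2.22 (adjusted p = 0.0470). The CRISPR-Cas9 and CRISPR-dCas-VPR lines differ in vector and passage at once, which cannot be told apart here.

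Knockout of COSMC was also made on top of CMAS loss. MC38-DKO against MC38-CMAS KO had 0 of 8 tested members called in limma, beside 6.93% of all genes, and 0 with an unadjusted p below 0.05, with a median log2 fold change of 0.30. The difference between the COSMC KO effect with and without CMAS KO was itself tested over the 4 lines. It was positive for 8 of 8 members tested (median 1.63) and called for 2, Gbp2 (1.86, SE 0.57, adjusted p = 0.0296) and Gbp3 (2.04, SE 0.64, adjusted p = 0.0337), beside 11.1% of genes called in that direction. For Gbp2 the COSMC KO effect was −1.34 without and 0.52 with CMAS KO, and for Gbp3 it was −1.59 and 0.45. Over the 12 fits that left out 1 sample, the count was 0 to 3. It was 0 without replicate 2 or 3 of MC38-CMAS KO, replicate 2 or 3 of MC38-COSMC KO, replicate 1 of MC38-DKO or replicate 2 or 3 of MC38-MOCK#1, and 1 without replicate 1 of MC38-MOCK#1.

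The genes most like the members were found by Pearson's r with the members' mean centred log2 level over 24 samples, among 13509 other genes with a mean of at least 10. The first 4 were Parp14 (r = 0.981), Xaf1 (0.971), Ddx58 (0.970) and Parp9 (0.969). For deviations from line means, r was 0.974, 0.979, 0.967 and 0.976, and without the 2 samples farthest from the median it was 0.950 to 0.982. Parp14 and Parp9 are ADP-ribosyltransferase family members, Xaf1 promotes apoptosis, and Ddx58 encodes the RNA sensor RIG-I. No p is given, since the samples share lines and the scaling.

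**Figure D4:**
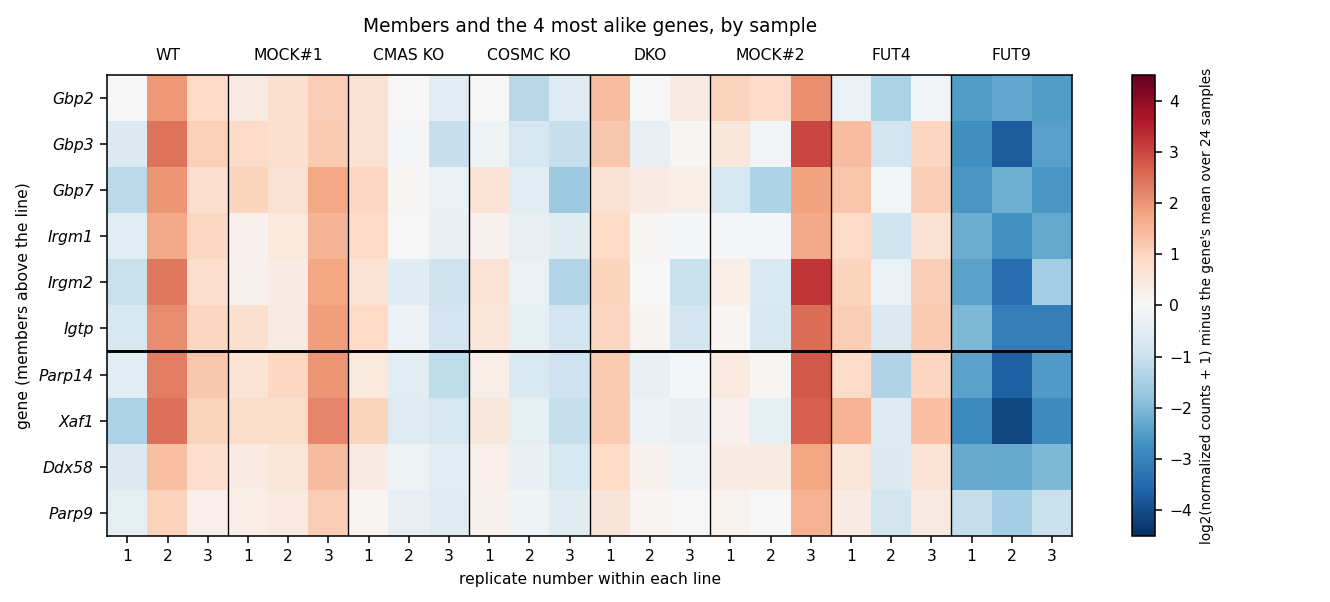
log2(normalized counts + 1) minus each gene's mean over 24 samples, for 6 members (above the thick line) and the 4 genes most like them, with samples in columns by line and replicate. The 3 MC38-FUT9 columns are blue in every row, and replicate 2 of MC38-WT and replicate 3 of MC38-MOCK#2 are red in every row.

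The transcription factors of the pathway moved in part with the members. Stat2 was at 619, 472 and 1473 normalized counts in MC38-MOCK#2 and at 234, 222 and 270 in MC38-FUT9, and fell by 1.64 on the log2 scale (SE 0.39, adjusted p = 0.0233). Irf1 (−1.18, SE 0.13, adjusted p = 0.00137) was also called lower in MC38-FUT9, and Irf9 was not (−1.20, SE 0.43, adjusted p = 0.0935). Of 8 factors tested, 4 were called lower and 0 higher in MC38-FUT9, beside 12% and 12.1% of all genes. In MC38-COSMC KO 2 of 8 were called lower, beside 5.39% of all genes. Irf1 was among them (−0.66, SE 0.07, adjusted p = 0.00234), and Stat2 was not (−0.47, SE 0.32, adjusted p = 0.401). In MC38-CMAS KO, where no member was called, 2 of 8 factors were also called lower, beside 2.73% of all genes. Irf1 was at 455 to 545 normalized counts there, at 444 to 515 in MC38-COSMC KO and at 747 to 761 in MC38-MOCK#1. The interaction of COSMC KO with CMAS KO was positive for Irf1 (1.22, SE 0.14, adjusted p = 3.47e-05). Over 24 samples the r with the members' mean was 0.906 for Stat2, 0.860 for Irf9 and 0.849 for Irf1.

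Among the receptors and kinases upstream of these factors, Ifngr1, Ifngr2, Jak1 and Jak2 had a lower r with the members' mean over 24 samples. No r was computed for the other receptors and kinases, the type I receptor chains among them. Ifngr1, a chain of the interferon-γ receptor, had an r of 0.450, Ifngr2, the other chain, −0.07, Jak1 −0.16 and Jak2 0.263. For deviations from line means r was higher, at 0.725 for Ifngr1, 0.646 for Ifngr2, 0.247 for Jak1 and 0.440 for Jak2, beside 0.891 for Stat2. In MC38-FUT9 against MC38-MOCK#2, Ifngr1 was at −0.12 (adjusted p = 0.564), Ifngr2 at 0.52 (adjusted p = 0.0950), Jak1 at 0.17 (adjusted p = 0.149) and Jak2 at −0.13 (adjusted p = 0.321) on the log2 scale. Of the 8 receptor and kinase genes tested 2 were called lower and 0 higher there, beside 12% and 12.1% of all genes. Among the inhibitors, Usp18, an interferon-induced brake on the type I receptor, fell by 4.76 (SE 0.93, adjusted p = 0.0114), and Socs1 did not pass (0.20, SE 0.25, adjusted p = 0.637). Usp18 was at 43, 23 and 340 normalized counts in MC38-MOCK#2. In MC38-FUT9 it was at 2, 2 and 1, under the floor of 2.43, so that its fold depends on the added count of 1. Of 8 inhibitors, 4 were called lower and 1 higher, beside the same shares of all genes. Of 13 interferon and related ligand genes in the table, 1 passed the filter on zeros in this comparison, and it was not called. In MC38-COSMC KO against MC38-MOCK#1 3 of the ligand genes passed the filter. There 1 was called higher and 0 lower, beside 6.17% and 5.39% of all genes.

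**Figure D5:**
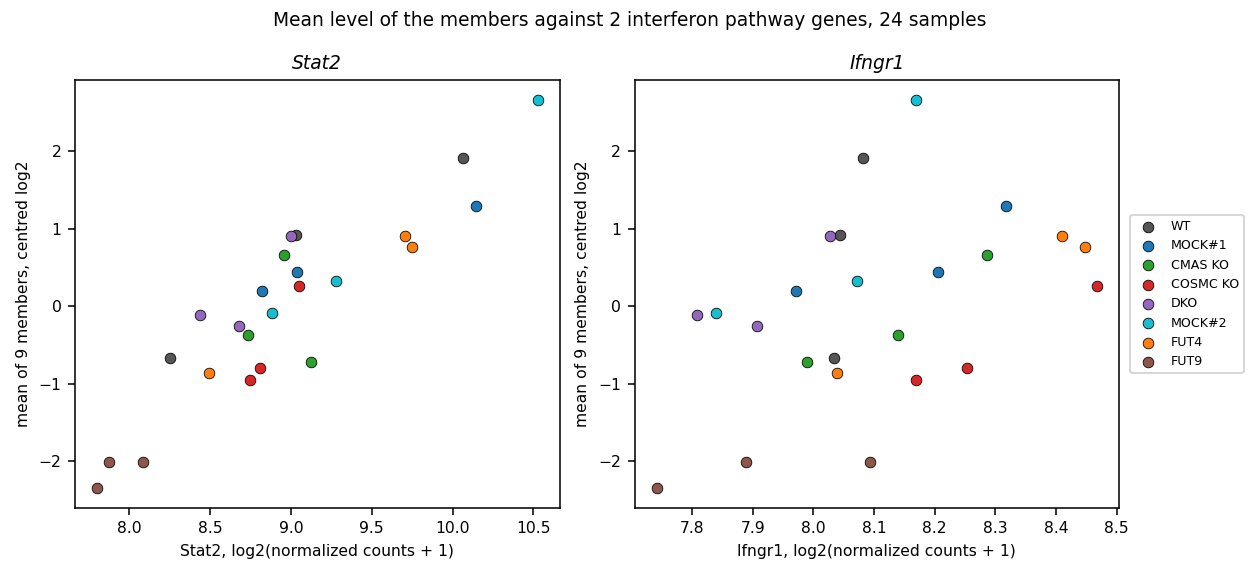
Mean of the 9 members (log2 values centred on each gene's mean over 24 samples, y axis) against the log2 level of Stat2 (left) and Ifngr1 (right) in each of 24 samples, coloured by line. The points follow Stat2 (r = 0.906) more closely than Ifngr1 (r = 0.450), and the x axes span different ranges.

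Other GTPases of the 2 families and the related Mx proteins were mostly near the detection limit. Of 18 in the table, 13 were tested in MC38-FUT9 against MC38-MOCK#2 and 5 were called lower, beside 12% of all genes. In MC38-COSMC KO against MC38-MOCK#1 3 of 11 were called lower, beside 5.39% of all genes. 9930111J21Rik1, called in the most comparisons, had log2 fold changes of −2.19 (SE 0.52, adjusted p = 0.0236) in MC38-FUT9 and −1.77 (SE 0.36, adjusted p = 0.0227) in MC38-COSMC KO. Of the 8 with a RefSeq promoter entry, 6 held an ISRE core. Enzymes that attach and process lipid anchors, which some GBPs carry, had 1 of 7 called lower in MC38-FUT9 (Zmpste24, −0.75, SE 0.09, adjusted p = 0.00155), a share near the 12% of all genes. Genes of ATG8 conjugation and vacuole tagging place IRGs and GBPs on vacuoles. In MC38-FUT9 6 of 14 such genes were called lower and 0 higher, beside 12% and 12.1% of all genes. Atg16l1, called in most comparisons of that list, was not among them (0.15, adjusted p = 0.194). It was at 1484 to 2196 normalized counts in MC38-MOCK#1 and at 761 to 1037 in all other lines, MC38-WT and MC38-MOCK#2 included, so that its call in MC38-COSMC KO (−1.11, SE 0.14, adjusted p = 0.00383) goes with a high level in that control line. Of 5 inflammasome genes tested in MC38-FUT9, 2 were called lower and 1 higher, beside 12% and 12.1% of all genes. Casp1 (−2.0, SE 0.38, adjusted p = 0.0103) was among those called lower. Casp1 rose by 1.89 in the line labelled FUT4 (SE 0.33, adjusted p = 0.00995). There 2 of 6 of these genes were called higher, beside 8.10% of all genes.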

How the data were processed

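MC38 RNA was sequenced as single reads of 50 bases from a stranded mRNA library. According to the submitters' processing notes and the study's methods, reads were trimmed, aligned to GRCm38 with HISAT2 2.0.4, handled with SAMtools 0.1.19, counted per gene with featureCounts (Subread 1.5.0-p3) without reads that overlap several genes, and scaled with edgeR 3.18.1 for library size and by the trimmed mean of M-values. The deposited values are these counts after scaling, rounded to whole numbers by the authors, and were treated as a score and not as raw counts. Whether counting used strand was not given in the sources used here. Replicates were cultures of a line at separate passages, except replicates 1 and 3 of the line labelled FUT4, both at passage 7.

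Of 52636 gene identifiers, 52403 had a symbol. Values were taken as log2(value + 1) and fitted with limma 3.58.1 (R 4.3.3, eBayes with trend, two-sided), 3 samples against 3, over genes with at most 4 zeros of 6 (8 of 12 for the test of the difference between effects, 16 of 24 for the F test), with Benjamini-Hochberg adjustment over all genes tested and 0.05 as the threshold. Fold changes are on that log2 scale and understate the change of low genes. MC38-MOCK#1 is shared by 5 of the 9 comparisons and MC38-MOCK#2 by 3. Named genes were the 9 members, the targeted genes, at most 4 genes per pathway list (Irf1, Stat2, Irf9; Ifngr1, Ifngr2, Jak1, Jak2; Socs1, Usp18; otherwise the gene called in most comparisons) and the 4 genes most like the members. A gene that the rule also names is not reported here and was left out of its list. Members and lists were chosen with earlier results of these data known. Casp1 and Zmpste24 follow from that rule, and single samples were named because of their values. The reads behind 1 normalized count were estimated from the spacing of low values. This estimate was tested on simulated data with 12 known factors (largest error 0.0021%), and covers counted reads only. Alternatives were pseudocounts of 0.5 and 5, no filter, a mean of at least 10, rescaling to the same total, median-of-ratios scaling, a fit of all 8 lines, no trend, a replicate block, a minimum log2 fold change of 1, and leaving out each sample. Python 3.11.15 was used for tables and figures.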

Additional observations from a re-analysis of the deposited data

Results flagged for a closer look

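The effect of COSMC KO differed with and without CMAS KO for 2 of 8 members tested, by a test of the difference itself (limma over 12 samples). Of all genes tested, 11.1% were called in the same direction and a similar share in the other. A difference of this kind is thus not particular to these members. For Gbp3 the difference was 2.04 on the log2 scale (SE 0.64, adjusted p = 0.0337), and for Gbp2 it was 1.86 (SE 0.57, adjusted p = 0.0296). Both calls were lost without the trend in the variance (adjusted p = 0.0731 and 0.0727), and leaving out 1 sample at a time lost it in 8 of 12 fits for Gbp3 and 7 of 12 for Gbp2. Replicate 1 was the highest sample of each knockout line and replicate 3 that of MC38-MOCK#1. Its part in the difference was not tested. Few genes were called in MC38-DKO against MC38-MOCK#1 (0.0920%), and whether this bears on the difference was not tested either.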

How the results depend on the processing

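Counts of members called lower moved under some alternatives. For MC38-FUT9 against MC38-MOCK#2 the count was 7, and 4 with a pseudocount of 5, without the trend, or with a replicate block. For MC38-COSMC KO against MC38-MOCK#1 the count was 1, and 2 without the filter, with a mean of at least 10, rescaled to the same total or with median-of-ratios scaling (Gbp2 joined Gbp3), and 0 when the 8 lines shared a fit or with a replicate block. For the line labelled FUT4 it was 1, and 2 when the 8 lines shared a fit and 0 without the trend. For the difference of the COSMC KO effect it was 2, and 0 without the trend. In the F test over 8 lines 7 members were called, and 5 with a pseudocount of 5 (Irgm2, adjusted p = 0.0814, and Gbp4, 0.0665, lost), 6 without the filter (Irgm2, 0.0567) or without the trend (Irgm2, 0.0854), 6 with a mean of at least 10 (6 tested) and 6 to 8 when 1 sample was left out. Leaving out 1 sample gave counts of 2 to 8 for MC38-FUT9, 0 to 1 for MC38-COSMC KO, 0 for the line labelled FUT4, 0 to 3 for the difference of effects and 0 to 1 for MC38-MOCK#2 against MC38-MOCK#1, with a lone sample in no arm. In these fits all 9 members stayed below 0 for MC38-FUT9 and for MC38-COSMC KO against either reference. The cause of these changes was not tested, apart from fewer samples in the fits that leave one out.

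The replicate block used the replicate numbers, which share a passage number in all comparisons but those with MC38-WT or the line labelled FUT4 and that of MC38-MOCK#2 with MC38-MOCK#1. Deviations of same-numbered samples from their line means did not correlate above 0.1 for every number in any comparison (mean r −0.10 to 0.17 over 13515 genes), so the numbers were not taken to pair the samples. With the block, 4 members were called for MC38-FUT9 (from 7) and 0 for MC38-COSMC KO (from 1), and the other counts did not change.

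Apart from leaving out samples, 3 uncalled values turned: Gbp3 in MC38-WT against MC38-MOCK#1 rescaled to the same total (−0.0028), Gbp6 in MC38-CMAS KO against MC38-MOCK#1 with a pseudocount of 5 (0.042) and Gbp6 in MC38-DKO against MC38-MOCK#1 with a pseudocount of 0.5 (−0.069). Directions turned in some uncalled members when 1 sample was left out, and the lowest and highest log2 fold changes over these fits were as follows. In MC38-WT against MC38-MOCK#1 Gbp2 −0.28 to 0.69, Gbp3 −0.72 to 0.83, Gbp6 −0.19 to 1.21, Gbp7 −1.37 to 0.22, Irgm1 −0.50 to 0.58, Irgm2 −0.91 to 0.78, Igtp −0.88 to 0.55 and Iigp1 −0.51 to 1.39. In MC38-CMAS KO against MC38-MOCK#1 Gbp6 −1.19 to 0.21 and Iigp1 −1.19 to 0.041. In MC38-DKO against MC38-MOCK#1 Gbp2 −0.53 to 0.14, Gbp6 −0.69 to 0.71 and Iigp1 −0.28 to 0.95. In the line labelled FUT4 against MC38-MOCK#2 Gbp3 −1.25 to 0.31, Gbp6 −0.95 to 0.21, Irgm1 −0.63 to 0.29, Irgm2 −1.17 to 0.79 and Igtp −0.76 to 0.85. In MC38-MOCK#2 against MC38-MOCK#1 Gbp3 −0.72 to 0.83, Irgm1 −0.80 to 0.19, Irgm2 −0.98 to 0.98 and Igtp −1.30 to 0.30. In MC38-DKO against MC38-CMAS KO Gbp3 −0.0092 to 0.86, Gbp6 −0.44 to 1.27, Gbp7 −0.038 to 0.57, Irgm1 −0.21 to 0.44, Irgm2 −0.22 to 0.78 and Igtp −0.29 to 0.63.

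Values of Gbp4, Gbp6 and Iigp1 rest on few reads, 1 read being worth up to 1.67 normalized counts, and their folds depend on the pseudocount. Each modification is 1 line. Reads shared between overlapping genes were not counted.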
